A study of Papio anubis and Macaca mulatta with 6 samples.

Results

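The Notch pathway was followed across the cell types of the immature primate testis through 10 genes, namely the ligands JAG1, JAG2 and DLL4, the receptors NOTCH1, NOTCH2, NOTCH3 and NOTCH4, and the target genes HES1, HEY1 and HEYL. They were taken by their symbols from the gene lists of each species, and the set was chosen with earlier results of these data known. Of the 34178 genes listed for the baboon 9 belonged to the set, and NOTCH4 was not analysed here in the baboon. All 10 were among the 21356 genes listed for the rhesus monkey.

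Notch signalling passes between cells that touch. A ligand on the surface of one cell binds a receptor on its neighbour, the receptor is cut by proteases, and its intracellular part joins the DNA-binding protein RBPJ in the nucleus and turns on repressors of the HES and HEY families. The pathway is best known in blood vessels, where DLL4 and JAG1 on endothelium act on NOTCH receptors of endothelial and mural cells, and in the mouse testis a ligand on germ cells acts on a receptor of Sertoli cells, the nurse cells of the tubule, which then lower their output of the germ cell growth factor GDNF.

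The data were single-cell transcriptomes of unselected cells from testes of 2 baboons and 2 rhesus monkeys, with tissue collected at necropsy. The animals were euthanized for a purpose other than this study, and no treatment of them is named in the sources. Testis tissue was digested with collagenase and then trypsin, and the interstitial cells freed by the collagenase were washed off, so the shares of cell types are those of the digest. Baboon 1 gave the libraries 1A and 1B and baboon 2 gave 1 library; rhesus 1 gave 1 library and rhesus 2 gave the libraries 2A and 2B. Version 3 of the 10x Genomics 3′ chemistry was used for baboon 2 and version 2 for all other libraries, so in the baboon animal and chemistry cannot be told apart. The animals were immature, but the sources assign the ages (a newborn and animals of 15, 20 and 26 months) to the species in opposite ways, and no age is given to an animal here.

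The libraries held 16875294 to 49803025 unique molecular identifiers (UMIs, each standing for 1 captured RNA molecule), of which 57.7% to 87.4% were in called cells. There were 23057 baboon and 26479 rhesus cells, with a median of 1445 to 2743 UMIs per library. Cells were assigned to classes from the UMIs of marker genes alone, none of them a Notch gene. In the baboon these were 15956 Sertoli-like, 5090 stroma-like, 262 endothelial-like, 207 germ-like, 101 pericyte-like, 73 peritubular myoid-like, 68 lymphoid-like and 44 macrophage-like cells, and 5.45% of cells got no class. Rhesus cells fell into 13560 stroma-like, 7908 Sertoli-like, 676 myoid-like, 616 endothelial-like, 459 Leydig-like, 259 pericyte-like, 321 germ-like and 195 macrophage-like cells, with 9.13% without a class. A further 67 lymphoid-like cells came from rhesus 1 alone and were not tested. Libraries of one species shared 1 to 123 cell barcodes, and where the chemistry was the same the shared numbers lay near those that chance gives, except 109 against 79.4 for rhesus 2A and 2B.

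Some classes carried markers of other cells. In the baboon, 25 of 101 pericyte-like cells (24.8%) also carried at least 3 markers of a class of another lineage at 0.25 or more of that class's level, 16 of them the endothelial list, and these mixed cells had a median of 7200 UMIs against 1548 in the other pericyte-like cells. Such cells were also 14 of 44 macrophage-like, 13 of 68 lymphoid-like and 26 of 262 endothelial-like cells. The rhesus myoid-like class held a median of 36.0 UMIs per 10000 of its own list and 71.4 of the stroma list, against 104 in stroma-like cells, and 324 of 374 myoid-like cells of rhesus 1 and 167 of 302 of rhesus 2 carried the stroma list. In the baboon this held for 2 of 46 and 0 of 27 myoid-like cells. The Notch gene calls in the baboon pericyte-like and rhesus myoid-like classes are given with and without those cells. Without mixed cells, rhesus 1 had too few pericyte-like cells for a test, and baboon 1 too few macrophage-like cells (8). In the fits without mixed cells a class was thus set against fewer other classes. In all, rhesus 1 gave only 14 pericyte-like and 48 endothelial-like cells.

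UMIs were summed per animal and cell type and each species was tested alone (8 types, n = 2 animals each), with levels given as UMIs per 1000000 UMIs of the type (CPM). Of the set, 8 baboon and 6 rhesus genes had enough UMIs to be tested. NOTCH1 did not in either species, nor did JAG1, NOTCH3 and NOTCH4 in the rhesus monkey. All tested genes differed among the cell types at an adjusted p under 0.05, as did 59.1% of all baboon and 49.5% of all rhesus genes tested. Because a sum does not count cells, fewer expressing cells and less RNA per expressing cell cannot be told apart in it.

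In the baboon the endothelial-like, pericyte-like and myoid-like classes held most of the higher calls. Against the mean of the other types, 4 of 8 genes were higher in endothelial-like cells (12.2% of all genes tested) and 1 was lower (1.90%), 6 were higher in pericyte-like cells (7.73%) and 5 in peritubular myoid-like cells (5.23%). In germ-like cells 2 were higher (31.7%) and 3 lower (11.2%). In Sertoli-like cells 1 was higher (15.6%), as in stroma-like cells (9.34%). None was called by edgeR in macrophage-like (4.44%) or lymphoid-like cells (4.01%), where 1 gene (JAG1) and 2 genes (HES1 and NOTCH3) were lower at an unadjusted p under 0.05; DESeq2 called 0 and 1 (HES1). In Sertoli-like cells DESeq2 called 6 genes, with NOTCH2 joined by DLL4, HEY1, JAG1, JAG2 and NOTCH3, each of which was lower there and had 0 UMIs in some other class. In stroma-like cells it called 4, adding DLL4, HEY1 and JAG2 as lower. Shares of all genes were counted for the main edgeR fit only, so the counts by DESeq2 and in other settings stand without one. The median log2 difference of the 8 genes was 3.53 in pericyte-like, 2.86 in endothelial-like and 1.59 in myoid-like cells. Over all genes tested it was 0.14, 0.19 and -0.13. In germ-like and Sertoli-like cells the median of the 8 genes was -0.62 and -1.41, beside 0.55 and 0.35. DLL4, HEY1, JAG1, JAG2 and NOTCH3 each had 0 UMIs in some class. Their differences, and with them these medians, thus depend on a small count that the fit adds. No lower level of the set in germ-like or Sertoli-like cells is read from the medians. Without mixed cells 5 genes were higher in pericyte-like cells, with NOTCH2 gained (2.25, adjusted p = 0.0183) and DLL4 and HEYL lost, and the median there was 2.24. That edgeR fit also called HES1 lower in lymphoid-like cells (-5.08, adjusted p = 9.37e-05), where mixed cells held 34 of its 36 UMIs. It further called HES1 higher in endothelial-like cells (1.48, adjusted p = 0.00326), JAG1 lower in germ-like and Sertoli-like cells, and NOTCH3 higher in stroma-like cells.

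Rhesus cells gave fewer calls. In endothelial-like cells 2 of 6 genes were higher (9.50% of all genes tested) and 1 lower (3.50%), and in germ-like cells 2 were higher (26.2%) and 2 lower (14.5%). Of the other classes, myoid-like cells had 2 higher genes (3.36%), pericyte-like cells 1 (2.57%), Sertoli-like cells 1 (9.14%), and stroma-like cells 1 higher (5.09%) and 1 lower (0.991%). Leydig-like cells had none higher (3.90%) and 1 lower (0.506%). In macrophage-like cells none was called by edgeR (7.76%) or DESeq2; each had 1 gene at an unadjusted p under 0.05 there, which was JAG2, higher, in the edgeR fit. In Sertoli-like cells DESeq2 called 3, adding DLL4 and HEY1 as lower, again without a counted share of all genes. Leaving out the libraries in turn left the number of higher calls at 17 in the baboon (19 with all libraries) and at 8 or 9 in the rhesus monkey (9 with all); without baboon 2 or rhesus 1 a single animal remains and there is no test.

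**Figure D1:**
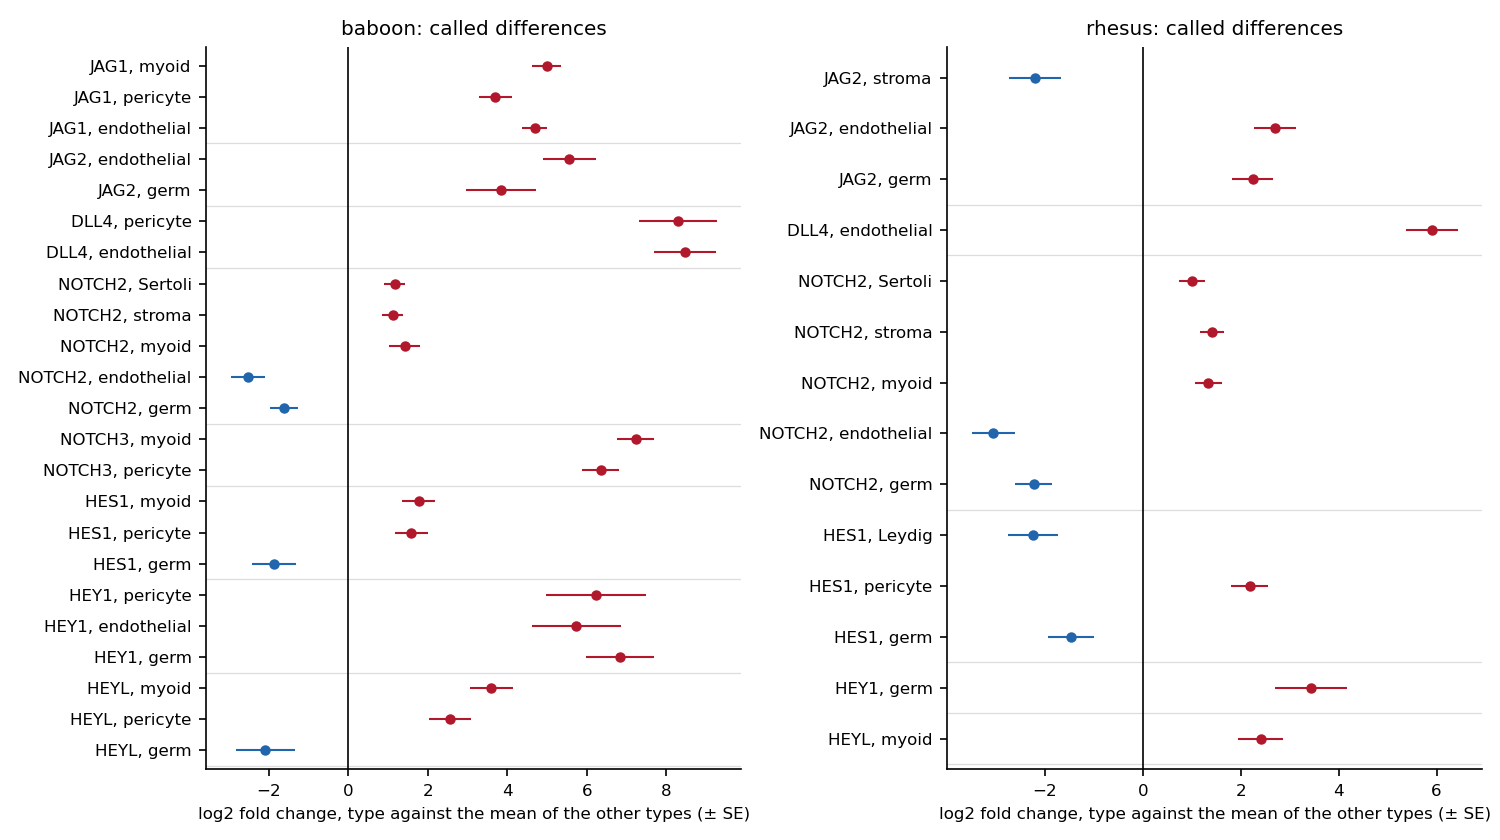
Log2 fold change (x axis) of each Notch gene and cell type pair called at an adjusted p under 0.05, for the type against the mean of the other types, with its SE (bars), from sums of 2 animals per species; red points are higher and blue points lower. In the baboon the points farthest to the right are DLL4 in endothelial-like and pericyte-like cells (8.47 and 8.29), and in the rhesus monkey DLL4 in endothelial-like cells (5.90).

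DLL4, the Delta-type ligand of sprouting and arterial endothelium, marked the endothelial-like class in both species. In the baboon its level there was 79.2, 70.3 and 98.8 CPM in the libraries 1A, 1B and 2, and in the classes other than endothelial-like and pericyte-like it was 0 to 2.99 CPM. Rhesus values were 52.0, 124 and 132 CPM in the libraries 1, 2A and 2B, with 0 to 23.2 CPM outside the endothelial-like and pericyte-like classes, the highest of these from 2 UMIs. So the endothelial-like values lay above those of these other classes in all 6 libraries. The log2 difference from the mean of the other types was 8.47 ± 0.79 (SE, adjusted p = 4.57e-06) in the baboon and 5.90 ± 0.53 (adjusted p = 3.78e-06) in the rhesus monkey. Where a type held 0 UMIs, as here in the myoid-like cells of both species, such a difference depends on the small count that the fit adds and is no bound; against Sertoli-like cells, the rhesus levels were 87.4 and 112 times as high in the 2 animals, and the baboon levels at least 766 times (0 Sertoli-like UMIs in baboon 1, taken as a floor of 3 counts in its sum) and 561 times.

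In baboon pericyte-like cells DLL4 stood at 0, 118 and 99.3 CPM in 1A, 1B and 2, and was called higher (8.29 ± 0.98, adjusted p = 9.03e-05). All 31 of these UMIs came from the mixed cells, most of which carry endothelial markers. Without the mixed cells it was at 0 UMIs in both animals, and the difference was -3.92 (adjusted p = 1.00). The endothelial-like difference was 10.08 without mixed cells. In rhesus pericyte-like cells DLL4 had 3 UMIs in each animal, 65.6 and 7.45 CPM; edgeR did not call it (adjusted p = 0.248) and DESeq2 did (2.94, adjusted p = 0.0431).

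With each cell thinned to 1000 UMIs, DLL4 was found in 7.88% of baboon endothelial-like cells (95% exact binomial interval 4.81% to 12%) and 11.7% of rhesus ones (9.09% to 14.6%). Before thinning the shares were 25.6% and 31.7%, at medians of 3384 and 2668 UMIs. Sertoli-like cells, taken as the background that free RNA gives, had it in 0 of 14872 cells in the baboon, which allows up to 0.0202%, and in 0.102% in the rhesus monkey, with medians of 2385 and 1652 UMIs before thinning. The endothelial-like shares thus lay far above the background at equal depth. These intervals cover counting error only.

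JAG2, a Serrate-type ligand, was higher in endothelial-like and germ-like cells of both species. In the baboon it was at 35.2, 42.2 and 77.2 CPM in endothelial-like cells and at 28.4, 6.21 and 21.1 CPM in germ-like cells, against 0.679, 0.981 and 1.26 CPM in Sertoli-like cells. Rhesus levels were 88.3, 77.0 and 76.4 CPM in endothelial-like and 83.9, 31.1 and 57.3 CPM in germ-like cells, against 9.76, 8.94 and 10.7 CPM in Sertoli-like cells. Sertoli-like values did not overlap with either class in any library. The rhesus Sertoli-like values were close to those of the free RNA of near-empty barcodes, 13.1, 9.05 and 11.4 CPM, so no expression is read from them.

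The log2 difference of JAG2 was 5.56 ± 0.66 in baboon endothelial-like (adjusted p = 2.66e-05) and 3.85 ± 0.88 in germ-like cells (adjusted p = 0.00269). Baboon myoid-like and lymphoid-like cells held 0 UMIs of JAG2. With at least 30 cells in a sum, which leaves those classes out, the differences were 3.83 (adjusted p = 3.91e-05) and 1.70 (adjusted p = 0.00452). For the rhesus classes it was 2.70 ± 0.43 (adjusted p = 0.000414) and 2.24 ± 0.42 (adjusted p = 0.000603), and in stroma-like cells, at 4.59, 3.16 and 3.37 CPM, it was -2.20 ± 0.53 (adjusted p = 0.0201). Rhesus endothelial-like and germ-like levels overlapped between animals, and in the baboon the 2 animals stood at 37.9 and 77.2 CPM in endothelial-like and at 21.2 and 21.1 CPM in germ-like cells. Macrophage-like cells held 13 UMIs in the rhesus monkey (13.2, 54.9 and 46.3 CPM) and 2 in the baboon, and were not called in either species.

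JAG1, the ligand best known from vessel walls and bile ducts, could be tested in the baboon alone. It was high in the myoid-like, endothelial-like and pericyte-like classes. It was at 433, 207 and 356 CPM in myoid-like cells. In endothelial-like cells it was at 229, 215 and 346 CPM, and in pericyte-like cells at 158, 151 and 193 CPM. Stroma-like cells followed at 33.3, 38.3 and 42.1 CPM and germ-like cells at 12, 27.9 and 25.9 CPM, and none of the stroma-like or germ-like values reached those of the 3 leading classes. Sertoli-like cells held 3.50, 3.57 and 3.37 CPM, below the free RNA level of their own libraries (7.87, 38.8 and 10.8 CPM).

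Between animals the JAG1 levels ran in the order myoid-like (354 and 356 CPM), endothelial-like (224 and 346 CPM), pericyte-like (154 and 193 CPM), stroma-like (35.2 and 42.1 CPM) and germ-like (17.2 and 25.9 CPM), with no overlap between neighbours in this order, although the myoid-like value of library 1B, from 8 UMIs, lay under all 3 endothelial-like values. The log2 differences were 4.99 ± 0.36 in myoid-like (adjusted p = 2.81e-07), 4.69 ± 0.32 in endothelial-like (adjusted p = 5.84e-08) and 3.70 ± 0.42 in pericyte-like cells (adjusted p = 2.64e-05). Mixed cells held 36 of the 62 JAG1 UMIs of the pericyte-like class. Without them the levels were 196 and 167 CPM and the difference 2.17 (adjusted p = 0.00112). That fit lacked the macrophage-like class, which held 0 UMIs of JAG1, and in it the endothelial-like difference was also smaller (3.28). What part the mixed cells and the missing class each had in the smaller pericyte-like difference was not tested.

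Rhesus JAG1 had 30 UMIs in all cells together and no library of a tested class was above 2.91 CPM. Some marker genes were also nearly without UMIs there but not in the baboon. The endothelial cadherin CDH5 was at 2.63 CPM in rhesus and 229 CPM in baboon endothelial-like cells, and the pericyte gene NDUFA4L2 was listed at 0 in rhesus and stood at 428 CPM in baboon pericyte-like cells, while the endothelial genes KDR (203 and 176 CPM) and VWF (864 and 1194 CPM) were well covered in both. The species were counted against different annotations, and the part of that in the low rhesus values of JAG1 and of NOTCH3 was not tested.

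**Figure D2:**
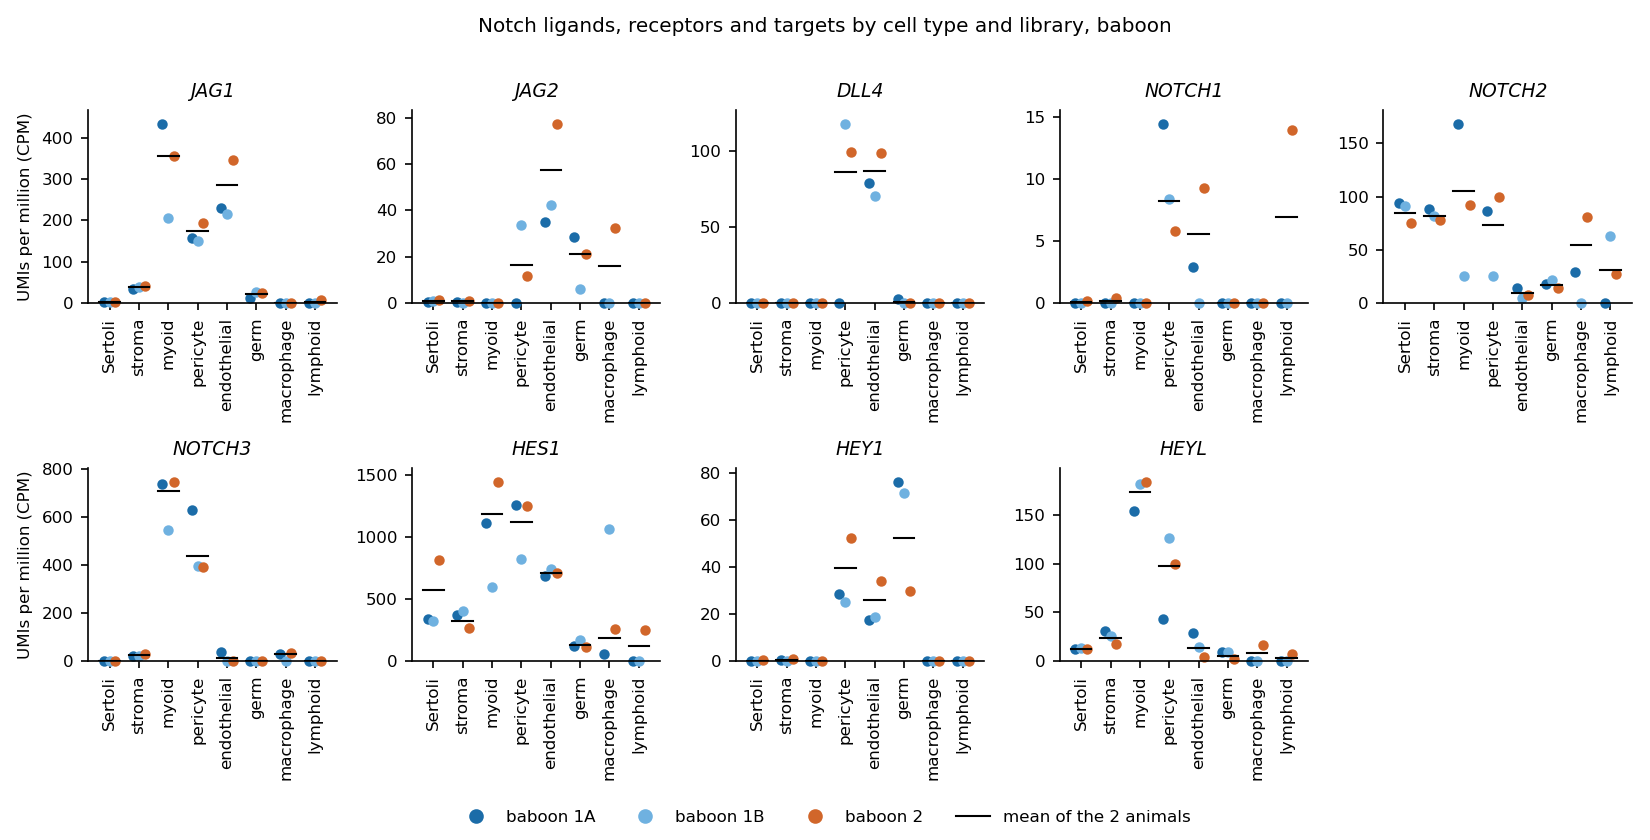
Level in UMIs per 1000000 (y axis, from 0) of the 9 Notch genes listed for the baboon, in each cell type (x axis); points are the 3 libraries and black lines the mean of the 2 animals. DLL4 is near 0 outside endothelial-like (70.3 to 98.8 CPM) and pericyte-like cells, and NOTCH3 reaches 545 to 747 CPM in myoid-like cells.

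**Figure D3:**
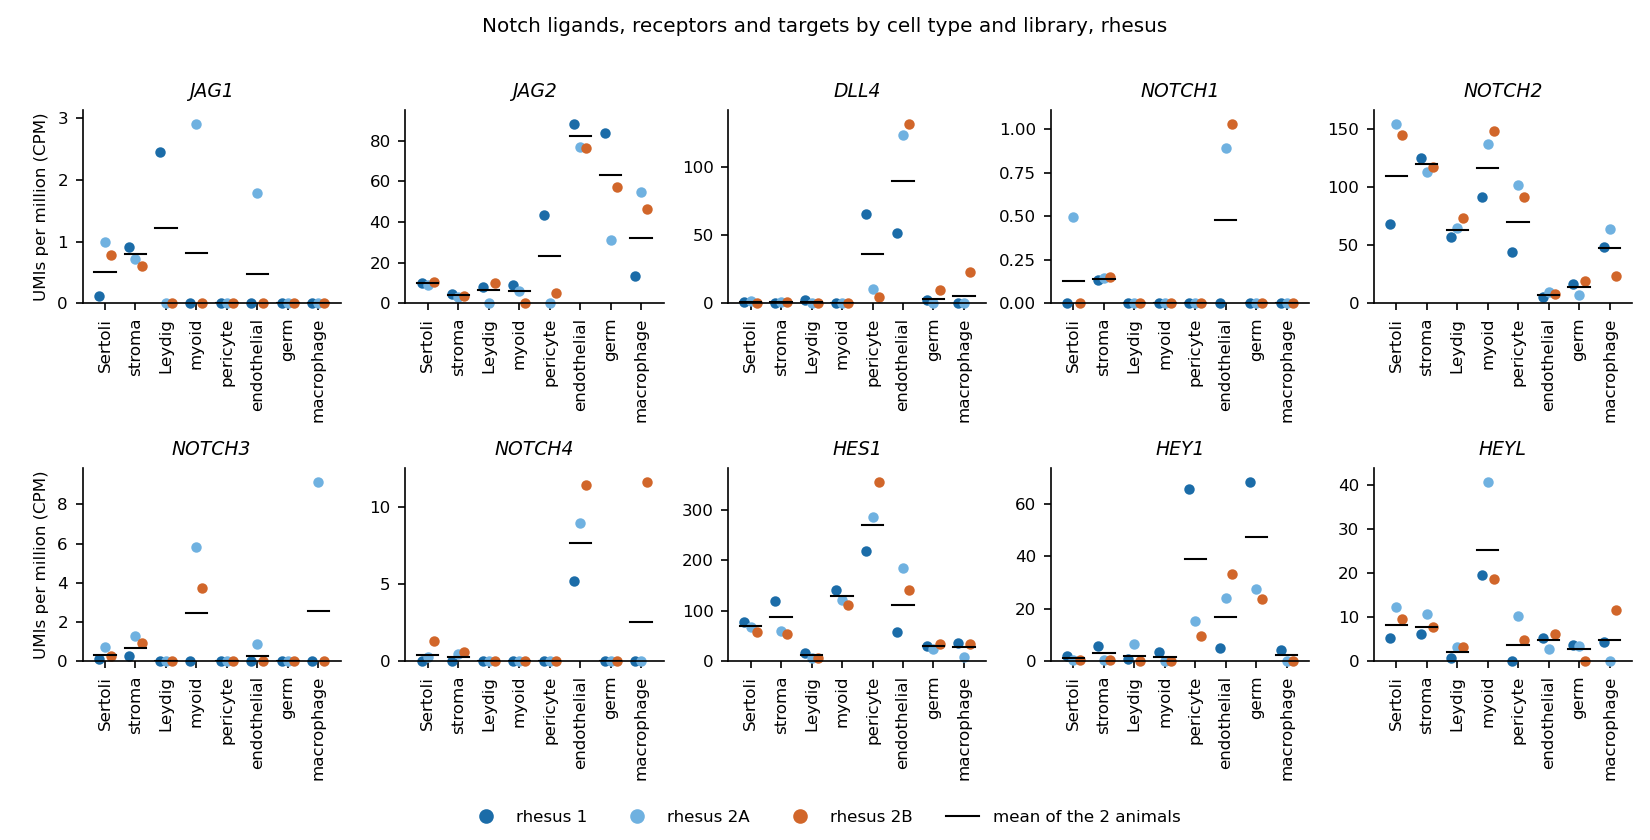
The same plot for the 10 Notch genes in the rhesus monkey, with points for the libraries 1, 2A and 2B and the mean of the 2 animals as a line; each panel has its own scale. HES1 is highest in pericyte-like cells (219 to 356 CPM), while JAG1 and NOTCH1 stay under 3 CPM throughout.

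NOTCH2, a receptor used in many epithelia and in stroma, had 6371 UMIs in baboon and 4969 in rhesus cells. It was spread over the somatic classes and low in endothelial-like and germ-like cells. In the baboon it was at 94.3, 90.9 and 75.7 CPM in Sertoli-like and 88.1, 82.1 and 78.0 CPM in stroma-like cells. Endothelial-like cells held 14.7, 4.68 and 7.72 CPM and germ-like cells 18.0, 21.7 and 14.4 CPM. None of the 6 low values reached any of the 6 high ones. Sertoli-like cells of the 2 animals had 8.62 and 9.81 times the endothelial-like level and 4.85 and 5.26 times the germ-like level.

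The rhesus pattern had the same low classes. Sertoli-like cells held 68.1, 154 and 145 CPM and stroma-like cells 125, 113 and 117 CPM, while endothelial-like cells held 5.20, 9.85 and 8.26 CPM and germ-like cells 16.4, 6.90 and 19.1 CPM. In endothelial-like cells the log2 difference was -2.53 ± 0.44 in the baboon (adjusted p = 0.000544) and -3.06 ± 0.44 in the rhesus monkey (adjusted p = 0.000164). In germ-like cells it was -1.62 ± 0.36 (adjusted p = 0.00190) and -2.23 ± 0.38 (adjusted p = 0.000296), the latter -1.93 (adjusted p = 1.00) once the UMIs expected of free RNA were subtracted. In that rhesus fit the endothelial-like difference was -10.32, which enters the mean that germ-like cells were set against. Set directly against germ-like cells, Sertoli-like cells were higher by 3.69 there (adjusted p = 0.000766). The low endothelial-like and germ-like levels lay under those of the free RNA, which held NOTCH2 at 63.0 to 94.1 CPM in the baboon and 36.9 to 57.7 CPM in the rhesus monkey. The baboon Sertoli-like and stroma-like levels were themselves near the free RNA of the same libraries (63.0, 94.1 and 72.2 CPM in 1A, 1B and 2). In 1B they lay under it. Rhesus Sertoli-like and stroma-like levels lay above the free RNA in every library.

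NOTCH2 was called higher in Sertoli-like cells (1.16 ± 0.27, adjusted p = 0.00506, in the baboon; 1.00 ± 0.26, adjusted p = 0.0153, in the rhesus monkey) and in stroma-like cells (1.11 ± 0.27, adjusted p = 0.0122; 1.41 ± 0.25, adjusted p = 0.00260). In myoid-like cells it was at 168, 25.9 and 91.9 CPM in the baboon, the value of 1B from 1 UMI, with a difference of 1.42 ± 0.39 (adjusted p = 0.0419) that was 0.94 (adjusted p = 0.492) without library 1A. In rhesus myoid-like cells it was at 91.3, 137 and 148 CPM (1.34 ± 0.27, adjusted p = 0.00829). Without the rhesus myoid-like cells that carry the stroma list, the levels were 57.1 and 84.6 CPM and the difference was 0.68 (adjusted p = 0.606).

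At 1000 UMIs per cell, NOTCH2 was found in 7.82% of baboon and 9.24% of rhesus Sertoli-like cells, and in 7.46% and 10.7% of stroma-like cells. Without thinning the Sertoli-like shares were 23.2% and 16.7%, and the endothelial-like ones 3.44% and 2.92%. In thinned endothelial-like cells the shares were 0.830% (0.101% to 2.97%) and 0.546% (0.113% to 1.59%), and in germ-like cells 0.521% (0.0132% to 2.87%) and 1.09% (0.226% to 3.15%). The upper limits in endothelial-like and germ-like cells lay under the Sertoli-like and stroma-like shares in both species. These low classes were named from the same UMIs, so the shares describe the same difference and are no separate support. As for DLL4, the intervals cover counting error only and not the spread between animals.

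NOTCH3, the receptor of vascular smooth muscle and pericytes, was concentrated in the mural and myoid classes of the baboon. It was at 740, 545 and 747 CPM in myoid-like cells and at 632, 395 and 391 CPM in pericyte-like cells. Stroma-like cells held 22.2, 20.8 and 31.3 CPM, and Sertoli-like cells 0.357 to 0.967 CPM, so neither overlapped with those classes. In endothelial-like cells it was at 38.1, 0 and 1.54 CPM, with 13 of the 14 UMIs in library 1A and all 14 in mixed cells. The myoid-like level was 31.0 and 23.9 times the stroma-like level in the 2 animals.

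The log2 difference of NOTCH3 was 7.23 ± 0.46 in myoid-like cells (adjusted p = 7.73e-08) and 6.35 ± 0.47 in pericyte-like cells (adjusted p = 4.19e-07). Mixed cells held 51 of the 158 UMIs of the pericyte-like class, and without them its levels were 812 and 682 CPM, against 483 and 391 CPM with them, and the difference was 9.79. A UMI of NOTCH3 was found at 1000 UMIs per cell in 55.6% of myoid-like (42.5% to 68.1%) and 44.6% of pericyte-like cells (33.7% to 55.9%), against 0.0471% of Sertoli-like cells (75.3%, 65.3% and 0.288% without thinning). Rhesus NOTCH3 had 30 UMIs in all and none in 259 pericyte-like cells or in the free RNA of its 3 libraries, so nothing is read from its absence in a class.

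NOTCH1, the broadly used receptor of T cells and endothelium, had 22 UMIs in all baboon and 8 in all rhesus cells. Of the baboon UMIs 7 were in endothelial-like, 7 in Sertoli-like, 3 in pericyte-like, 3 in stroma-like and 2 in lymphoid-like cells, and per library its levels there were at most 14.4 CPM. NOTCH4, known from endothelium, had 39 UMIs in the rhesus monkey, of which 22 were in endothelial-like cells at 5.20, 8.95 and 11.4 CPM. In the other classes it was at 0 to 1.30 CPM, except for 1 UMI in the macrophage-like cells of 2B (11.6 CPM). With so few UMIs neither passed the filter on low counts, so no conclusion is drawn from the fit without this filter. Without it, NOTCH4 was higher in endothelial-like cells (5.90, adjusted p = 2.66e-05), and NOTCH1 differed among the baboon cell types (adjusted p = 0.000183; 0.0405 with clusters) with no single class called; for rhesus NOTCH1 the adjusted p was 1.00.

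HES1, the repressor that many tissues use as their first Notch target and that other pathways also induce, had 43301 UMIs in baboon and 4003 in rhesus cells. In the baboon it was at 1264, 824 and 1256 CPM in pericyte-like cells and at 1117, 596 and 1447 CPM in myoid-like cells. Endothelial-like cells held 689, 745 and 712 CPM and Sertoli-like cells 343, 327 and 820 CPM. The lowest well-covered class was the germ-like one, at 126, 171 and 118 CPM, below every library of those 4 classes. The Sertoli-like levels of the 2 animals were 337 and 820 CPM.

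HES1 was called higher in baboon pericyte-like (1.58 ± 0.42, adjusted p = 0.0255) and myoid-like cells (1.77 ± 0.42, adjusted p = 0.0167), and lower in germ-like cells (-1.87 ± 0.55, adjusted p = 0.0110; -1.45, adjusted p = 0.0737, with cell types from clusters). Mixed cells held 181 of the 401 pericyte-like UMIs, and without them the levels were 1372 and 1698 CPM and the difference 2.40. Without library 1A the pericyte-like difference was 1.38 (adjusted p = 0.0725) and the myoid-like one 1.39 (adjusted p = 0.120). Rhesus HES1 was also highest in pericyte-like cells, at 219, 287 and 356 CPM (2.18 ± 0.37, adjusted p = 0.00278), the first of these from 10 UMIs.

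Among the other rhesus classes HES1 was at 31.0, 24.2 and 33.4 CPM in germ-like cells (-1.47 ± 0.47, adjusted p = 0.0203) and at 17.1, 6.45 and 6.65 CPM in Leydig-like cells, the steroid-producing cells of the interstitium (-2.25 ± 0.51, adjusted p = 0.0198). Without mixed cells the animals' levels were 33.2 and 28.2 CPM in germ-like and 14.2 and 6.67 CPM in Leydig-like cells, and the differences were -0.90 (adjusted p = 0.187) and -1.89 (adjusted p = 0.0895). With at least 30 cells in a sum they were -1.25 (adjusted p = 0.0524) and -1.93 (adjusted p = 0.0569). Neither fit held the pericyte-like class, the highest for HES1, so the mean of the other types was over a different set. None of the 48 germ-like HES1 UMIs was in a mixed cell. The germ-like difference also lost its call after subtraction of free RNA (-1.19, adjusted p = 0.210). With clusters, again without the pericyte-like class, it was -0.80 (adjusted p = 0.236). Endothelial-like cells held 57.2, 185 and 142 CPM, the first from 48 cells, and were not called (0.92 ± 0.37, adjusted p = 0.131). The pericyte-like values lay above those of all other tested classes in every library. At 1000 UMIs per cell HES1 was found in 23.9% of rhesus pericyte-like cells (18.2% to 30.4%) and in 67.5% of baboon ones (56.3% to 77.4%; 33.6% and 76.2% without thinning), against 0.455% of rhesus Leydig-like and 9.90% of baboon germ-like cells.

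HEY1, a repressor related to HES1, was higher in germ-like cells of both species. Its level there was 76.3, 71.4 and 29.8 CPM in the baboon, from 105 UMIs, and 68.4, 27.6 and 23.9 CPM in the rhesus monkey, from 88 UMIs. In Sertoli-like cells it was 0.0522 to 0.381 CPM in the baboon and 0.497 to 1.79 CPM in the rhesus monkey, so the germ-like values were above the Sertoli-like ones in all 6 libraries. Relative to Sertoli-like cells, the germ-like level was 78.2 times as high in baboon 2 and 38.2 and 51.2 times in the 2 rhesus animals; in baboon 1 the levels were 74.7 and 0.0988 CPM, the latter from 3 UMIs. The log2 difference from the other types was 6.84 ± 0.86 in the baboon (adjusted p = 3.41e-05) and 3.43 ± 0.74 in the rhesus monkey (adjusted p = 0.00177). Baboon myoid-like, macrophage-like and lymphoid-like cells held 0 UMIs of HEY1, so the size of the baboon difference depends on the small count that the fit adds. With at least 30 cells in a sum, which leaves those classes out, it was 3.57 (adjusted p = 0.000149).

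Vessel-associated classes also held HEY1. In baboon endothelial-like cells it was at 17.6, 18.7 and 34.0 CPM (5.74 ± 1.13, adjusted p = 0.00311) and in pericyte-like cells at 28.7, 25.2 and 52.6 CPM (6.24 ± 1.26, adjusted p = 0.00596). With 14 UMIs in pericyte-like cells, 7 of them in mixed cells, the latter difference was 6.0 (adjusted p = 0.0324) without those. With at least 30 cells in a sum the endothelial-like difference was 2.65 (adjusted p = 0.00602) and the pericyte-like one 3.25 (adjusted p = 0.0133). Rhesus endothelial-like cells were at 5.20, 24.2 and 33.1 CPM and pericyte-like cells at 65.6, 15.4 and 9.63 CPM, the first value of each from 1 and 3 UMIs, and neither was called (adjusted p = 0.120 and 0.535). In animal 2 of each species the germ-like and endothelial-like levels were close, with ratios of 0.876 and 0.919, while in animal 1 they were 4.15 in the baboon and, with 1 endothelial-like UMI in the rhesus monkey, 68.4 against 5.20 CPM.

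The share of germ-like cells with a HEY1 UMI at 1000 UMIs was 4.17% (1.82% to 8.04%) in the baboon and 5.45% (3.08% to 8.84%) in the rhesus monkey. In Sertoli-like cells of the same testes it was 0.0202% (0.00416% to 0.0589%) and 0.131% (0.0598% to 0.248%). Without thinning the germ-like shares were 32.4% and 16.8%, at medians of 9280 and 2542 UMIs. The intervals pool the cells of both animals, with 282 of the 321 rhesus germ-like cells from rhesus 1. They cover counting error only, and the species were not compared by them. In rhesus 1 stroma-like cells held HEY1 at 5.90 CPM, near the 4.46 CPM of that library's free RNA, and at 0.432 and 0.306 CPM in 2A and 2B.

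**Figure D4:**
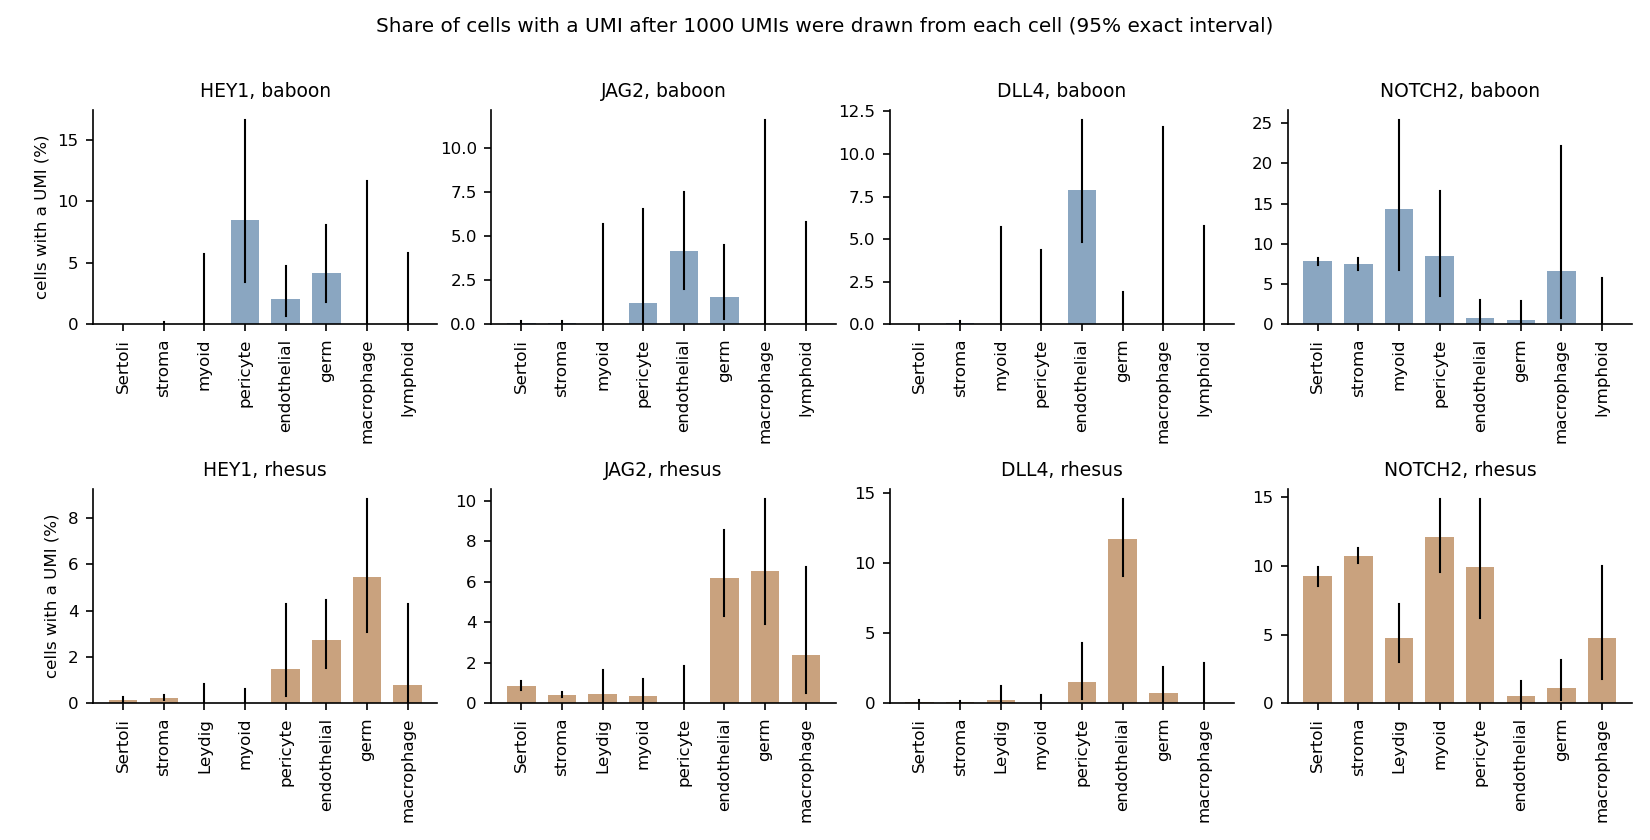
Share of cells with a UMI (y axis, percent) of HEY1, JAG2, DLL4 and NOTCH2 by cell type (x axis) after 1000 UMIs were drawn from each cell; top row baboon, bottom row rhesus, bars are shares and lines 95% exact binomial intervals, and scales differ between panels. HEY1 stands at 4.17% and 5.45% in germ-like cells and at 0.0202% and 0.131% in Sertoli-like cells, and DLL4 at 7.88% and 11.7% in endothelial-like cells.

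HEYL, a member of the same family found in smooth muscle of vessels, was higher in myoid-like cells of both species. In baboon myoid-like cells it was at 154, 182 and 184 CPM and in pericyte-like cells at 43.1, 126 and 99.3 CPM, while Sertoli-like cells held 12.5, 14.0 and 12.6 CPM and stroma-like cells 30.7, 26.3 and 17.6 CPM. All 3 libraries of both classes were above all of those of Sertoli-like and stroma-like cells. The log2 difference was 3.60 ± 0.53 in myoid-like (adjusted p = 0.000256), 2.56 ± 0.53 in pericyte-like (adjusted p = 0.00456) and -2.09 ± 0.74 in germ-like cells (adjusted p = 0.0312), where it was -1.18 (adjusted p = 1.00) without doublets and -1.60 (adjusted p = 0.0892) with clusters. Of the 35 pericyte-like UMIs 22 were in mixed cells, and without these the difference was 2.23 (adjusted p = 0.0785).

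In rhesus myoid-like cells HEYL was at 19.6, 40.8 and 18.6 CPM (2.41 ± 0.46, adjusted p = 0.00547), 3.66 and 2.79 times the Sertoli-like level in the 2 animals, and no other tested class's library was above 12.4 CPM. Rhesus pericyte-like cells, at 0, 10.2 and 4.82 CPM from 3 UMIs, were not called (-0.01 ± 1.11, adjusted p = 1.00). Without library 2A the difference was 2.11 (adjusted p = 0.0551). The myoid-like cells without the stroma list had only 2 and 3 UMIs (22.9 and 11.5 CPM), too few to test, and those with it had 15 and 16 UMIs (19.3 and 45.4 CPM). HES1 stood at 160 and 158 CPM in the former and 139 and 87.9 CPM in the latter.

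**Figure D5:**
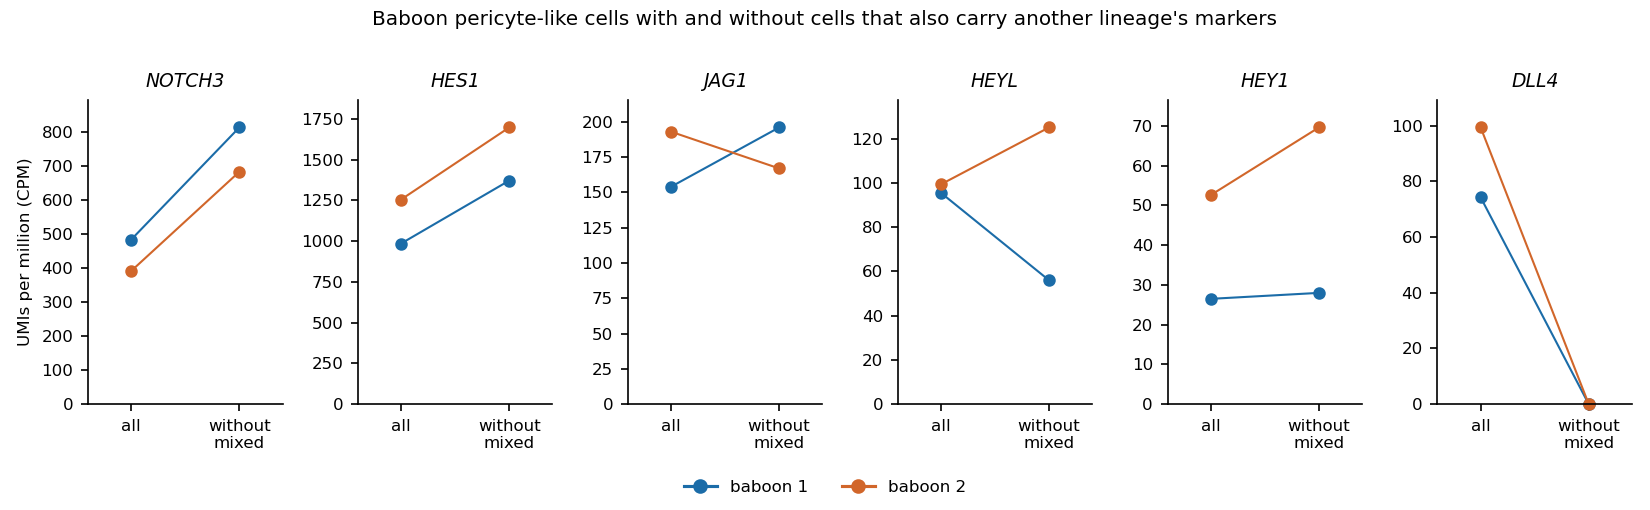
Level in UMIs per 1000000 (y axis, from 0) of 6 Notch genes in the pericyte-like cells of the 2 baboons (points joined by a line for each animal), for all 101 cells and without the 25 mixed cells (x axis). DLL4 falls from 74.2 and 99.3 CPM to 0, whereas NOTCH3 goes from 483 and 391 CPM to 812 and 682 CPM.

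The HEYL promoter is shown because its window held the short core that RBPJ, the DNA-binding protein of the pathway, recognises. HEYL, HES1 and JAG1 were all called higher in the same 2 baboon classes as NOTCH3. HEYL was thus picked for its match, and its pericyte-like call was lost without mixed cells. The window is from the rhesus monkey, where HEYL was not called in pericyte-like cells and NOTCH3 was not tested. No link between these genes was tested. The window is the 250 bases before the annotated start of the gene in the RefSeq annotation of the rhesus genome (Mmul_10, chr1:184938570-184938819, plus strand, outside the transcribed part), and the capitals mark TGGGAA on the given strand or its complement TTCCCA.
HEYL: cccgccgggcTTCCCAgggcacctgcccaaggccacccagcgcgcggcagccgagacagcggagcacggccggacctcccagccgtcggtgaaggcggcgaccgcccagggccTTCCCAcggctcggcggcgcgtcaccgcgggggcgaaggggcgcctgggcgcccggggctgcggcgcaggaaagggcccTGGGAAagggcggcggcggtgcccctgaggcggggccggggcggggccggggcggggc
There were 3 matches, at 58 to 53 bases before the start on the given strand and at 137 to 132 and 240 to 235 bases on the opposite strand, in a window with 82.0% G and C. Of 20782 promoters of this length, 19.7% held the 6 letters on either strand at least once, so a match alone is common. On either strand, windows of the same length before HES1 and JAG1, with 43.2% and 66.8% G and C, did not hold these 6 letters. They also lacked CACGTG, which HES and HEY proteins bind and which 6.45% of the promoters held. The variant CACGCG, held by 9.99%, was absent from both as well. A match is a description of letters and not a binding site. Whether the annotated starts are those used in these cells was not tested, so a missing match in a window is not read as a missing site of the gene.

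Between Sertoli-like and germ-like cells, which share the tubule, 5 of 8 genes differed in the baboon, where 44.0% of all genes tested did, and 3 of 6 rhesus genes did, beside 32.2% of all. NOTCH2 was higher in Sertoli-like cells in both species, with a log2 difference of 2.43 ± 0.40 (adjusted p = 0.000174) for the baboon and 2.83 ± 0.43 (adjusted p = 0.000376) for the rhesus monkey. JAG2 was lower in Sertoli-like cells (-4.26 ± 0.59, adjusted p = 6.82e-05, and -2.70 ± 0.59, adjusted p = 0.00309), as was HEY1 (-7.55 ± 0.75, adjusted p = 8.26e-06, and -5.26 ± 1.19, adjusted p = 0.00391). The baboon calls were completed by JAG1, lower in Sertoli-like cells (-2.54 ± 0.36, adjusted p = 6.39e-05), and HES1, higher there (2.21 ± 0.64, adjusted p = 0.0104; 1.82, adjusted p = 0.0586, with clusters). Rhesus HES1 had a difference of 1.30 ± 0.54 (adjusted p = 0.0780), with Sertoli-like cells at 58.8 to 78.1 CPM and germ-like cells at 24.2 to 33.4 CPM. The free RNA of these libraries held HES1 at 72.4 to 84.8 CPM, above the Sertoli-like level of each. With the animal as a block the HES1 difference was called (1.29, adjusted p = 0.0291), which made 4 rhesus genes. The ligand JAG2 and the target HEY1 were thus higher in the germ-like class and the receptor NOTCH2 in the Sertoli-like class in both species. The target HES1 went the other way in both, called in the baboon but not in the main rhesus fit.

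The 2 genes that HES and HEY proteins are known to lower in mouse Sertoli cells had few UMIs. GDNF, the growth factor of spermatogonial stem cells, was at 7.07 and 19.2 CPM in the germ-like cells of the 2 baboons and at 2.31 and 0.410 CPM in their Sertoli-like cells. Rhesus GDNF was at 3.65 and 10.0 CPM in germ-like and 0.238 and 0.381 CPM in Sertoli-like cells. The germ-like values were higher in all 4 animals but came from 4 to 20 UMIs and were not tested. CYP26B1, the enzyme that breaks down retinoic acid, had at most 3 UMIs in a rhesus sum, and it was not analysed here in the baboon.

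Between endothelial-like and pericyte-like cells, the classical partners across the vessel wall, 2 of 8 genes differed in the baboon, where 1.94% of all genes tested did, and both were receptors lower in endothelial-like cells. These were NOTCH3 (-5.01 ± 0.65, adjusted p = 0.000871) and NOTCH2 (-2.82 ± 0.53, adjusted p = 0.00895), and both were also called without mixed cells (adjusted p = 4.98e-06 and 0.000826). Of 6 rhesus genes NOTCH2 alone was called (-3.19 ± 0.52, adjusted p = 0.00481), beside 2.94% of all genes tested, and 3 were called with the animal as a block, when JAG2 (3.48, adjusted p = 0.00924) and DLL4 (2.87, adjusted p = 0.0363) joined it. The value of JAG2 was 3.48 ± 0.97 (adjusted p = 0.0727) and that of DLL4 2.58 ± 0.97 (adjusted p = 0.221), both higher in endothelial-like cells. In the baboon no gene was called when cells were taken by the UMI cutoff alone, with NOTCH3 at -4.25 (adjusted p = 0.154), and 5 were called with cell types from clusters.

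The class with the highest mean level over the animals was the same in both species for 4 of the 9 genes listed in both, JAG2 and DLL4 (endothelial-like), HEY1 (germ-like) and HEYL (myoid-like). Of the other 5, JAG1, NOTCH1 and NOTCH3 had 8 to 30 rhesus UMIs in all, too few to place them. For JAG2, DLL4 and HEY1 the rhesus values of the leading class overlapped with those of the next class, and so did those of DLL4 and HEY1 in the baboon. For HEYL, rhesus myoid-like cells with the stroma list held 15 and 16 UMIs in the 2 animals, and those without it 2 and 3. Its rhesus call was also lost with cell types from clusters and without library 2A. The share of all genes with the same highest class in both species was not counted. HES1 was highest in myoid-like cells in the baboon and in pericyte-like cells in the rhesus monkey, but the baboon values of these 2 classes overlapped. Levels were not compared between species by a test.

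By likeness of log2(CPM + 1) over the 16 sums of a species, DLL4 was closest to genes of endothelium. In the baboon these were KDR (r = 0.997), ADGRL4 (0.994) and CDH5 (0.993), and in the rhesus monkey MCF2L (0.933), VWF (0.931) and PCDH12 (0.914). KDR, CDH5 and VWF are on the marker list that defined the endothelial-like class, so their likeness to DLL4 partly repeats that definition. NOTCH3 in the baboon was closest to BGN (0.936), EPS8 (0.922) and PDGFRB (0.913), the last being the growth factor receptor of pericytes. HEY1 was closest to ISLR2 (0.989), LY6H (0.961) and LOC101012009 (0.952) in the baboon and to MLLT3 (0.822), AP3M2 (0.795) and TUSC2 (0.790) in the rhesus monkey. HEYL in the baboon was closest to TPPP3, ADIRF and PPP1R12B (each 0.923). The values for NOTCH2 were lower in the baboon, with CEBPB first (0.815), than in the rhesus monkey, where FXYD6 (0.924), LRP1 (0.915) and the collagen gene COL1A2 (0.878) came first. Leading genes for JAG1, JAG2 and HES1 were RUSC2 (0.971) for baboon JAG1, UBASH3B (0.945) and SUSD4 (0.936) for baboon and rhesus JAG2, and PIK3C2A (0.95) and CHST1 (0.916) for HES1. These correlations are descriptions, since the sums share libraries and animals.

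Of 44 other genes of the pathway, 43 were listed in each species and 32 could be tested, and 18 baboon and 21 rhesus genes differed among cell types, beside the 59.1% and 49.5% of all genes tested. By role, 3 of 3 tested targets, 4 of 8 proteases, 5 of 8 genes of endocytosis and turnover, 2 of 4 glycosyltransferases, 2 of 7 nuclear genes and 2 of 2 non-canonical ligands differed in the baboon. The rhesus counts in the same order were 2 of 2, 4 of 9, 7 of 10, 3 of 4, 2 of 4 and 1 of 1, and both of the other canonical ligands, DLL1 and DLL3, differed as well.

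Several of these followed the classes named above. HES4, a target of the HES family, was at 254 and 345 CPM in baboon myoid-like cells (5.70 ± 0.64, adjusted p = 2.62e-05), and HEY2 was at 21.9 and 76.9 CPM in rhesus pericyte-like cells (3.06 ± 0.67, adjusted p = 0.0222), the first from 1 UMI. FURIN, the protease that matures the receptors, was at 74.2 and 46.7 CPM in baboon pericyte-like cells (4.18 ± 0.82, adjusted p = 0.00415). MFNG, a fringe enzyme that adds sugars to the receptors, was highest in lymphoid-like cells of the baboon (141 and 104 CPM, 5.45 ± 0.68, adjusted p = 7.01e-05) and was at 98.7 and 150 CPM in rhesus endothelial-like cells (5.91 ± 0.55, adjusted p = 5.17e-06). FURIN was also called higher in baboon endothelial-like cells, at 57.7 and 44.8 CPM (4.06 ± 0.72, adjusted p = 0.00110), and without mixed cells its pericyte-like difference was 2.91 (adjusted p = 0.116). Rhesus pericyte-like cells could not be tested without mixed cells.

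The other targets were not bound to 1 class either. HEY2 was higher in germ-like cells of both species, at 71.7 and 50.9 CPM in the baboon (2.79 ± 0.56, adjusted p = 0.000864) and 37.4 and 52.1 CPM in the rhesus monkey (2.49 ± 0.62, adjusted p = 0.00552), and in baboon myoid-like (4.18 ± 0.59, adjusted p = 0.000217) and pericyte-like cells (2.68 ± 0.71, adjusted p = 0.0266). NRARP, a target that feeds back on the receptor, was higher in baboon myoid-like (5.61 ± 0.66, adjusted p = 4.01e-05), pericyte-like (4.0 ± 0.77, adjusted p = 0.00279) and endothelial-like cells (3.19 ± 0.75, adjusted p = 0.00792).

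In germ-like cells DLL3, a ligand that acts mainly inside the cell, was at 29.2 and 40.1 CPM in the rhesus monkey (5.28 ± 0.66, adjusted p = 3.03e-05), and NEURL1, a ubiquitin ligase of ligands, at 27.4 CPM in rhesus 1 (3.19 ± 0.63, adjusted p = 0.00108). APH1A, a subunit of gamma-secretase, was lower in germ-like cells of both species (-1.12 ± 0.30, adjusted p = 0.00597, in the baboon; -2.01 ± 0.33, adjusted p = 0.000208, in the rhesus monkey). MAML2, a coactivator bound to RBPJ, was at 8.08 and 16.3 CPM in baboon germ-like cells (-2.28 ± 0.43, adjusted p = 0.000487). HES5, the HES gene best known from the nervous system, had 23 and 14 UMIs in the germ-like cells of the 2 baboons (23.2 and 13.4 CPM), at most 6 in any other sum of that species, and 0 in all rhesus classes; it was not tested.

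Outside the germ and vessel classes, DNER, a non-canonical ligand, was at 54.5 and 41.1 CPM in baboon Sertoli-like cells (5.27 ± 0.69, adjusted p = 0.000124). DLK1, a relative of the ligands that lacks their receptor-activating domain, was at 1125 and 718 CPM in rhesus myoid-like cells (2.35 ± 0.31, adjusted p = 0.000321; 0.64, adjusted p = 0.804, without the cells that carry the stroma list) and at 41.6 and 25.9 CPM in endothelial-like cells (-3.35 ± 0.53, adjusted p = 0.000424). NEURL1B, a relative of NEURL1, was at 90.8 and 115 CPM in baboon myoid-like cells (3.93 ± 0.64, adjusted p = 0.000799). PSENEN, another gamma-secretase subunit, was at 198 and 266 CPM in rhesus macrophage-like cells (1.84 ± 0.25, adjusted p = 9.79e-05). Over the 32 genes 5 were higher and 5 lower in baboon germ-like cells (15.6% each, beside 31.7% and 11.2% of all genes) and 6 and 6 in rhesus ones (18.8% each, beside 26.2% and 14.5%). In endothelial-like cells 8 were higher in the baboon (25.0%, beside 12.2%) and 6 in the rhesus monkey (18.8%, beside 9.50%), where 1, DLK1, was lower.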

How the data were processed

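The authors aligned the reads of each library to Panubis1.0 (baboon) or Mmul_10 (rhesus) with Cell Ranger 3.1.0; what they deposited is a table of raw UMI counts for every barcode of a library, with no normalization, and the authors' own clustering used Seurat 3.2.3. The Notch genes and the gene lists were chosen with earlier results of these data known, and the rule that turns marker UMIs into cell types was written after marker levels had been seen.

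Cells were called per library by a UMI cutoff for 5000 target cells and, from 500 UMIs upward, by comparison with free RNA (barcodes ranked above 45000 and up to 90000) in 10000 simulations at an adjusted p of 0.01, with at least 200 genes. Doublets, marked at 0.8% per 1000 cells (4.45% to 8.94% of cells per library), were kept. A cell got a class with at least 2 of its markers and a probability of at least 0.9 under marker profiles learned from cells with at least 3 markers of a list and a score 2 times that of the next. In a test on simulated cells, 1520 of 1555 baboon cells were put right and 35 got no class, and 2745 of 2842 rhesus cells were put right, 96 got no class and 1 a wrong one. Of 321 simulated rhesus germ cells, 79 got no class. The simulated cells were drawn from those same marker profiles with a fixed share of pooled RNA. They held no mixed cells and no myoid-like cells with the stroma list, so the test cannot show how such cells are classed.

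Counts were summed per animal and class with at least 10 cells in both animals, and compared in R 4.3.3 by edgeR 4.0.16 with quasi-likelihood F tests (TMM, filterByExpr, Benjamini-Hochberg adjustment over all 9625 baboon or 9687 rhesus genes tested, threshold 0.05); the standard error is the log2 difference divided by the square root of F. Each fit held 16 sums with 8 residual degrees of freedom. In counts simulated for germ-like cells, 70.1% of baboon and 59.7% of rhesus genes changed by 2 on the log2 scale were called, and 17.9% and 7.46% of those changed by 1. For endothelial-like cells these shares were 67.2% and 44.8%, and 19.4% and 4.48%. All classes come from the same 2 animals: the deviations of one animal correlated between classes with a median of 0.216 (baboon) and 0.250 (rhesus). Where a class held 0 UMIs of a gene, a lower call in another class could not be made against the mean of the other types.

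Shares of cells were compared after 1000 UMIs were drawn from each cell, shallower cells left out (1084 of 15956 Sertoli-like and 15 of 207 germ-like cells in the baboon, 1023 of 7908 and 46 of 321 in the rhesus monkey), with 95% exact binomial (Clopper-Pearson) intervals; the limit for a share of 0 is 3 cells of the total. The named genes are the 10 Notch genes, for each role of the other pathway genes the called gene with the largest rise and the one with the largest fall, the 3 genes most like each Notch gene, GDNF and CYP26B1; HES5, HEY2 in germ-like cells, NRARP, CDH5, NDUFA4L2, KDR, VWF and the mixed cells were named after values were seen. Alternatives were DESeq2 1.42.0, its size factors, no filter, other cell calling and typing, doublets left out, free RNA subtracted, libraries as samples, the animal as a block, 30 cells per sum, each library left out, and for shares 500 UMIs or no thinning. The 2 alternatives that leave out mixed cells or myoid-like cells with the stroma list were chosen after seeing the data.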

Additional observations from a re-analysis of the deposited data

How the results depend on the processing

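Each species was refitted in 15 other settings with a test. Of 30 named baboon differences 19 kept their call and direction in all of these settings that could test them, and 10 lost the call in some. The other 1, DLL4 in pericyte-like cells, was reversed, at -3.53 with cell types from clusters and at -3.92 without mixed cells (adjusted p = 1.00 in each). Of 18 rhesus differences 13 kept theirs on the same terms and 5 lost the call in some. The 5 myoid-like differences of the baboon had no test with clusters, by the UMI cutoff alone or with 30 cells per sum. With baboon 1 alone, which gives values without a test, the germ-like differences of HEYL and HES1 were 0.68 and 0.24, reversed against the fit of both animals; lymphoid-like cells of baboon 1 held 0 UMIs of either gene, and over the libraries left out in turn the differences ran from -2.70 to 0.68 for HEYL and from -2.11 to 0.24 for HES1. Genes called among cell types ran from 7 to 9 in the baboon and 5 to 7 in the rhesus monkey, higher pairs of gene and cell type from 13 to 22 and 6 to 13, and genes differing between Sertoli-like and germ-like cells from 4 to 6 and 3 to 4. The shares of all genes called in these other settings were not counted.

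Between endothelial-like and pericyte-like cells 2 baboon genes were called, but 0 by the UMI cutoff alone (edgeR) and 5 with clusters; in the rhesus monkey 1 was called, but 2 by DESeq2 and 3 without a filter, with libraries as samples and with the animal as a block. The cause was not tested. With the animal as a replicate block the counts were 8, 22, 6 and 3 in the baboon, and the others in the rhesus monkey 6, 12 and 4. Leaving out a library gave 7 to 8, 17, 4 to 6 and 2 to 3 in the baboon and 5 to 6, 8 to 9, 3 and 1 in the rhesus monkey. With clusters, with 30 cells per sum and without mixed cells, rhesus pericyte-like cells could not be tested. Baboon macrophage-like cells could not be tested without mixed cells. Where a class was missing in this way, the mean of the other types was over fewer classes. Calls lost beyond those given with the results were HES1 and HEY1 in baboon pericyte-like cells (adjusted p = 0.0834 and 0.0630) and NOTCH2 and HEYL in rhesus myoid-like cells (0.941 and 0.159) with clusters, NOTCH2 in baboon myoid-like cells without the filter (0.0852), and HEY1 in baboon pericyte-like cells by the UMI cutoff alone (0.0643). Classes were small, with 44 to 101 cells in 4 baboon classes and 14 pericyte-like cells in rhesus 1, and each class had 2 animals.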
